A study of Mus musculus with 8 samples.

Results

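Described here are the transcripts of 10 enteroendocrine genes in sorted tuft cells, 9 that encode gut peptide hormones (Pyy, Gcg, Cck, Sct, Gip, Sst, Nts, Ghrl and Tac1) and Tph1, which encodes the enzyme that starts serotonin synthesis in the gut. They were taken by name and make up 10 of the 35199 genes in the count table. Enteroendocrine cells are scattered secretory cells of the gut epithelium that release peptides or serotonin when food, microbial products or nerves stimulate them. They are classed by their main product, although single cells often make several hormones. Tuft cells are a different and equally rare epithelial cell type that senses luminal chemicals, and hormone transcripts are not part of their usual marker set.

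The study asked whether blockade of muscarinic acetylcholine receptors alters the transcriptome of tuft cells, and it compared cells from 4 mice given scopolamine, a nonselective muscarinic antagonist, with cells from 4 sham mice given sodium chloride. All 8 were Dclk1-DTR-ZSgreen mice, which carry a bacterial artificial chromosome with the Dclk1 locus driving a diphtheria toxin receptor and the green reporter ZSgreen. The sort thus selects for cells in which this transgene is active, though RNA of other cells in the libraries is not excluded. The line was backcrossed to C57BL/6J. Osmotic pumps were implanted at 8 to 10 weeks of age and delivered scopolamine at 0.5 mg per kg per day or sodium chloride, for 7 days before small intestinal epithelium was taken, and mice of both sexes were used in the study. Each mouse gave 1 library from 3000 (scopolamine mouse 1 and sham mouse 1) or 4000 sorted live ZSgreen-positive cells with a high epithelial marker signal, amplified from 1000 pg of RNA with 10 cycles, except that sham mice 1 and 3 had 200 pg and 15 cycles. Total estimated counts were 20327680, 20244608, 14343362 and 20857433 in scopolamine mice 1 to 4 and 25769940, 40426059, 41428916 and 35391538 in sham mice 1 to 4. Every sham library was thus deeper than every scopolamine library, so an effect of depth cannot be told apart from one of scopolamine, and the 200 pg libraries were both sham.

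The tuft cell label was checked against 22 marker genes, all of which passed the expression filter and none of which was at 0 in all libraries. Their summed level was 25401, 19408, 30557 and 17622 CPM (CPM with TMM library sizes, the unit of all levels below) in scopolamine mice 1 to 4 and 26064, 26397, 26261 and 22736 CPM in sham mice 1 to 4. Dclk1, the kinase that marks tuft cells, was the most abundant at 4359 ± 1009 CPM (mean ± SD, n = 4) in scopolamine mice and 4871 ± 687 CPM in sham. Every library therefore held abundant tuft cell transcripts, and the hormone transcripts were measured on that background. Since these are bulk libraries of sorted cells, fewer hormone-containing cells and less hormone RNA per cell cannot be told apart.

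Secretin was present throughout, while the other 9 transcripts came and went from mouse to mouse. A gene was taken as carried by a library above 3 counts, which correspond to 0.0729 to 0.212 CPM depending on the library. The same 3 counts are the limit that a count of 0 allows, for counting error only. Scopolamine mice 1 to 4 carried 8, 10, 7 and 7 of the 10 genes and sham mice 1 to 4 carried 5, 5, 8 and 5, with means of 8 ± 1.41 (SD, n = 4) and 5.75 ± 1.5. The groups overlapped, because sham mouse 3 carried as many as scopolamine mouse 1 and more than scopolamine mice 3 and 4. Above 10 counts the numbers were 8, 10, 6 and 7 with scopolamine and 4, 3, 8 and 4 in sham. With 1 floor for all libraries, the 0.212 CPM that 3 counts make in the shallowest, they were 8, 10, 7 and 7 and 4, 3, 8 and 4. The difference in this number was not tested, and neither was the part of depth in it.

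Each mouse had its own set. Scopolamine mouse 2 was the only library that carried all 10 genes. Scopolamine mouse 1 lacked Nts and Ghrl, scopolamine mouse 3 lacked Sst, Nts and Tac1, and scopolamine mouse 4 lacked Pyy, Sst and Nts. Sham mouse 3 carried every gene except Gip and Sst. Sham mouse 1 carried Gcg, Cck, Sct, Sst and Tac1, sham mouse 2 carried Cck, Sct, Sst, Ghrl and Tph1, and sham mouse 4 carried Gcg, Sct, Gip, Sst and Tph1. Other than Sct, these 3 sham libraries carried Sst at 62 counts in sham mouse 1, Cck at 489 in sham mouse 2, Gip at 611 and Sst at 292 in sham mouse 4, and the rest at 20 counts or fewer.

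**Figure D1:**
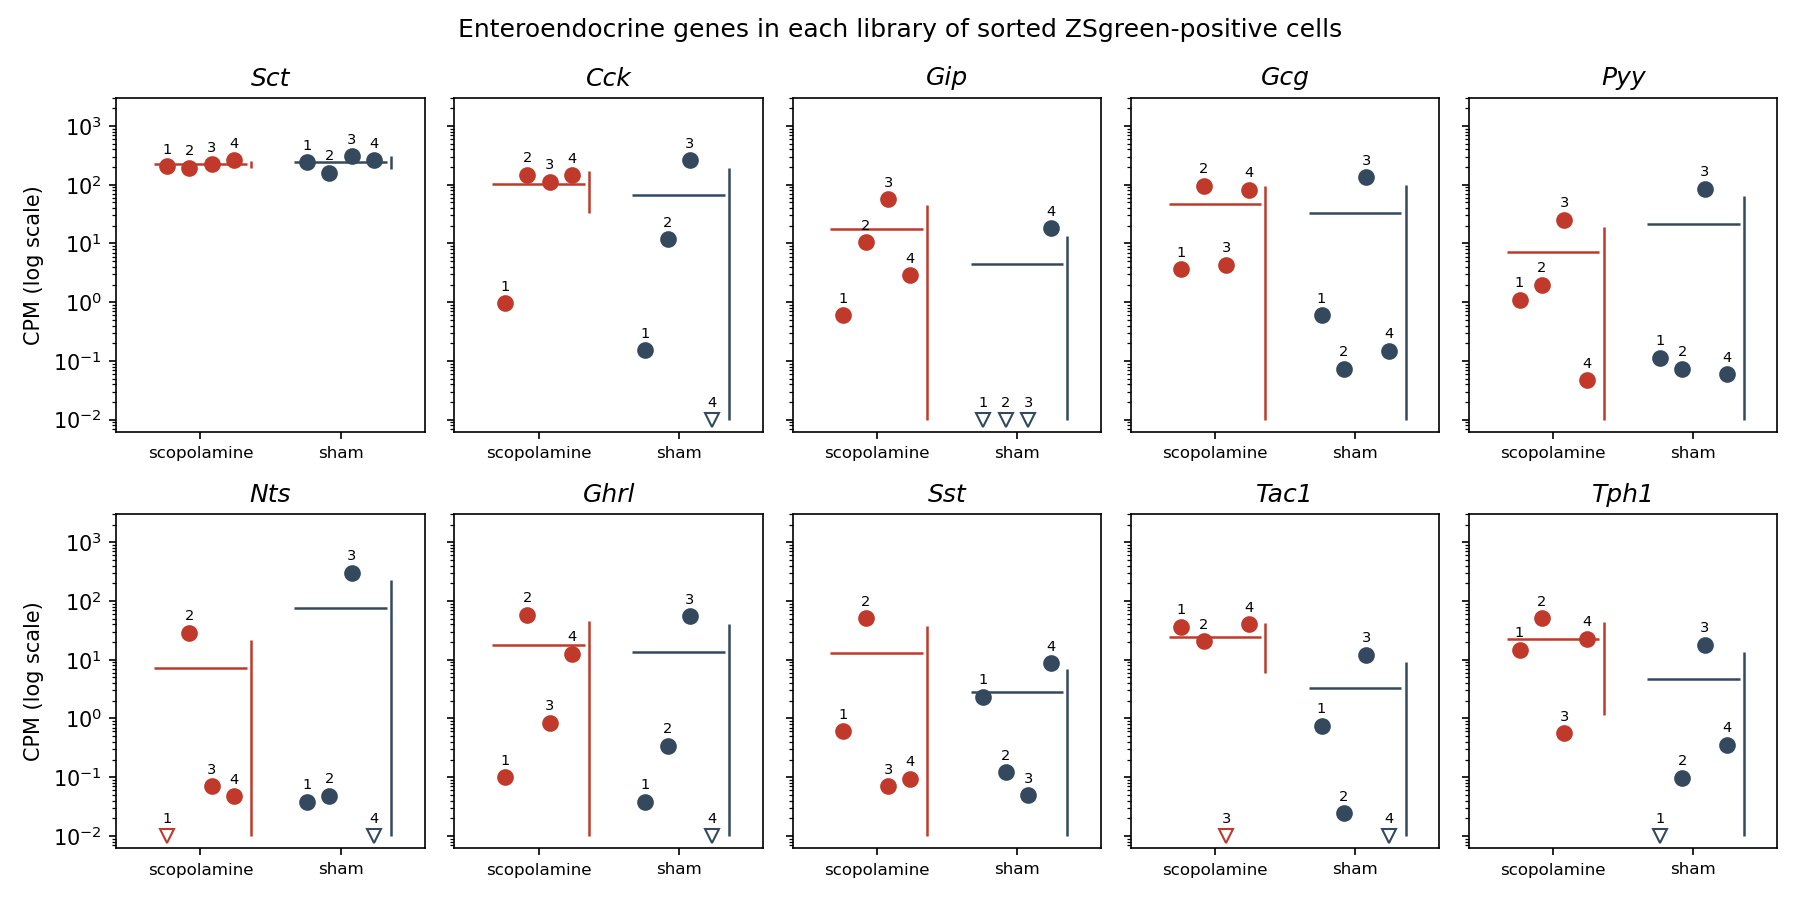
Level of each of the 10 genes in CPM on a log axis, 1 point per library with the mouse number above it, horizontal lines for the group mean and vertical lines for ± 1 SD (n = 4 per group), which are drawn down to the lower edge where the mean minus the SD is below 0.01. Open triangles at the lower edge are counts of 0. Sct lies between 162 and 304 CPM in all 8 libraries, whereas the other genes range from 0 or near 0 to far higher levels within the same group.

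Summed over the 10 genes, the level was 265, 658, 425 and 570.5 CPM in scopolamine mice 1 to 4 and 248, 174, 1169 and 291 CPM in sham mice 1 to 4. Sham mouse 3 had the highest sum and sham mouse 2 the lowest, so the sham group enclosed all 4 scopolamine libraries. The means were 479 ± 172 CPM (SD, n = 4) and 471 ± 468 CPM. Sct made up 98.4, 92.7, 26.0 and 90.6% of the sum in sham mice 1 to 4 and 78.0, 29.4, 52.8 and 46.1% in scopolamine mice 1 to 4. In sham mice 1, 2 and 4, then, hormone RNA was nearly all secretin, and in scopolamine mice 2 and 4 and sham mouse 3 it was a mixture. Without Sct the sum was 58.2, 464, 200.4 and 308 CPM with scopolamine and 4.05, 12.7, 865 and 27.5 CPM in sham. By CPM, without regard to transcript length, the leading hormone after Sct was Tac1 in scopolamine mouse 1, Cck in scopolamine mice 2, 3 and 4 and sham mouse 2, Sst in sham mouse 1, Nts in sham mouse 3 and Gip in sham mouse 4. Per kb of coding transcript Cck led in sham mouse 3, at 414 CPM per kb against 241 for Nts, and the other leaders were the same. Leaving out sham mouse 3 lowered the sham mean of the summed level to 238 CPM.

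**Figure D2:**
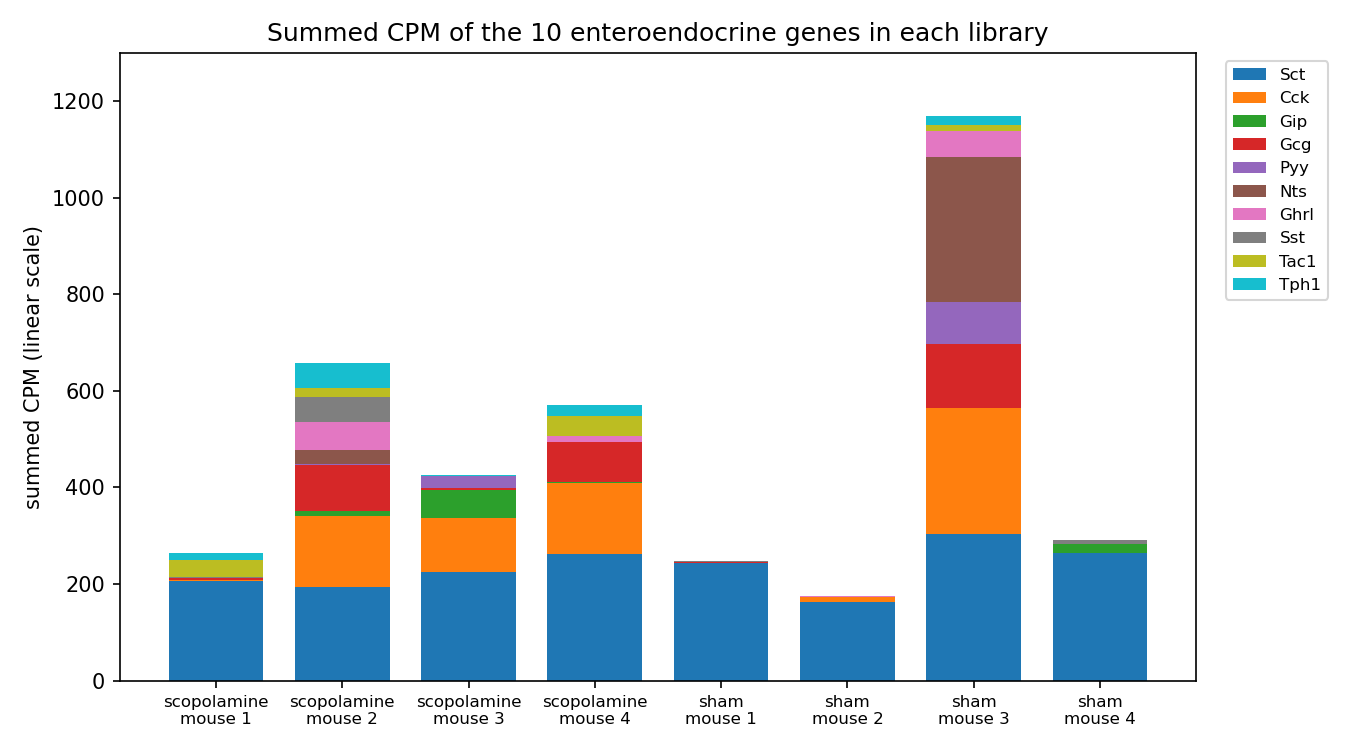
Summed CPM of the 10 genes on a linear axis, 1 stacked bar per library, with each colour 1 gene. The Sct segment has a similar height in all bars, and the tallest bar, sham mouse 3 at 1169 CPM, adds large Cck, Nts, Gcg and Pyy segments to it.

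Levels were compared between genes in CPM per kb of coding transcript, averaged over the 8 libraries. Sct was highest at 451 ± 88.2 CPM per kb (SD, n = 8). Cck followed at 135 ± 155 CPM per kb, and the gap between them exceeded either SD. Next in level per kb came Gcg (46.1), Ghrl (33.6), Nts (33), Pyy (26.2), Gip (17.8), Tac1 (16.5), Sst (10.8) and Tph1 (5.83 CPM per kb), and from Cck downwards no gene differed from its neighbour by more than their spread over libraries. By the median over libraries Tac1 came next after Cck at 7.76 CPM per kb and Nts last at 0.0384, because the mean of Nts rests on 1 library. The choice of length mattered too, since with the longest coding transcript in place of the mean one Ghrl had 17.8, Tac1 11.2 and Tph1 2.94 CPM per kb, and Nts (33) and Pyy (25.7) lay above Ghrl.

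Secretin, the product of Sct, is the S cell hormone that makes the pancreas release bicarbonate when acid reaches the duodenum. Sct (chromosome 7 from 141278330 to 141279133 of GRCm38, minus strand, 4 exons) had 4122, 4126, 3184 and 5559 counts in scopolamine mice 1 to 4 and 6439, 6649, 12287 and 8836 counts in sham mice 1 to 4. This amounted to 206, 193, 225 and 263 CPM with scopolamine and 244, 162, 304 and 264 CPM in sham. Sham mouse 3 was highest and sham mouse 2 lowest, the groups overlapped, and no library fell outside a narrow band. Its means of 222 ± 30.3 CPM (SD, n = 4) and 243 ± 60.0 CPM gave an edgeR log2 fold change, scopolamine over sham, of -0.13 (standard error 0.198, adjusted p = 0.937). The coefficient of variation between mice was 13.6% with scopolamine and 24.7% in sham, below the medians of 32.6% and 37.4% over the 12849 genes tested. In sham each of the other 9 genes had a coefficient of variation above that of 90% of genes tested, the lowest being 145% for Sst. With scopolamine 7 of the 9 did, and Cck (68.0%) and Tac1 (75.5%) did not. The comparison was not matched by level, and each of the 9 had a lower median CPM than Sct in both groups.

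Cck and Gip encode hormones of the upper small intestine. Cholecystokinin, from I cells, contracts the gallbladder and releases pancreatic enzymes after fat and protein. Cck (chromosome 9 from 121489824 to 121495694) was measured at 0.952, 148, 112 and 146 CPM in scopolamine mice 1 to 4 and at 0.151, 11.9, 259.9 and 0 CPM in sham mice 1 to 4, from 0 counts in sham mouse 4 to 10495 in sham mouse 3. It was high in scopolamine mice 2, 3 and 4 and in sham mouse 3, intermediate in sham mouse 2 and under 1 CPM in the remaining 3 libraries, so the groups overlapped. The means were 102 ± 69.2 CPM (SD, n = 4) and 68.0 ± 128 CPM, with an edgeR log2 fold change of 0.58 (standard error 1.77, adjusted p = 0.980). Glucose-dependent insulinotropic polypeptide, the K cell incretin encoded by Gip (chromosome 11 from 96024545 to 96030831), showed a different pattern. Gip was measured at 0.601, 10.6, 57.1 and 2.88 CPM in scopolamine mice 1 to 4, and its counts in sham mice 1 to 4 were 0, 0, 0 and 611, the last of these making 18.2 CPM. Only sham mouse 4 carried it in that group, a library without Cck, and it lay above scopolamine mice 1, 2 and 4 and below scopolamine mouse 3. Its edgeR log2 fold change was 1.96 (standard error 2.03, adjusted p = 0.903). This value hung on single libraries, at 0.04 without scopolamine mouse 3 and 11.87 without sham mouse 4, when no sham library had a count and the fitted value depends on the prior count.

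The L cell hormones behaved alike in some mice and not in others. Gcg encodes proglucagon, which L cells process to the glucagon-like peptides that raise insulin release and support mucosal growth. Gcg (chromosome 2 from 62474530 to 62483650) was measured at 3.61, 95.6, 4.30 and 82.9 CPM in scopolamine mice 1 to 4 and at 0.606, 0.0729, 134 and 0.149 CPM in sham mice 1 to 4. Scopolamine mice 2 and 4 and sham mouse 3 were high, scopolamine mice 1 and 3 were low but well above the floor, and the other sham libraries had 16 counts or fewer, so that the groups overlapped through sham mouse 3 alone. With means of 46.6 ± 49.5 CPM (SD, n = 4) and 33.7 ± 66.8 CPM, the edgeR log2 fold change was 0.47 (standard error 1.81, adjusted p = 0.988). Without scopolamine mouse 2 it was -0.15. Peptide YY, encoded by Pyy (chromosome 11 from 102106676 to 102107832), is the other main L cell hormone and slows gut transit and appetite. Pyy had 22, 42, 359 and 1 counts in scopolamine mice 1 to 4 and 3, 3, 3453 and 2 in sham mice 1 to 4. Its highest level was 85.5 CPM in sham mouse 3 and its next 25.3 CPM in scopolamine mouse 3, where Gcg was low, and the remaining libraries were under 2 CPM. 88.9% of all Pyy counts came from sham mouse 3, and the edgeR log2 fold change was -1.60 (standard error 2.07, adjusted p = 0.923).

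Neurotensin, the N cell peptide that slows motility and aids fat absorption, is encoded by Nts (chromosome 10 from 102481756 to 102490486) and was the most unevenly spread of the 10. Nts had 0, 612, 1 and 1 counts in scopolamine mice 1 to 4 and 1, 2, 12122 and 0 in sham mice 1 to 4. It reached 300.2 CPM in sham mouse 3 and 28.6 CPM in scopolamine mouse 2, and no other library had more than 2 counts. Sham mouse 3 held 95.2% of all Nts counts. Being carried by so few libraries, Nts did not pass the expression filter, and the same edgeR test on all 21805 genes with a count put its log2 fold change at -3.40 (standard error 2.35, adjusted p = 0.649). Ghrelin, the hunger hormone of X cells, is encoded by Ghrl (chromosome 6 from 113716119 to 113719880). Ghrl had 2, 1237, 12 and 270 counts in scopolamine mice 1 to 4 and 1, 14, 2205 and 0 in sham mice 1 to 4. It was high in scopolamine mouse 2 at 57.9 CPM and in sham mouse 3 at 54.6 CPM, intermediate in scopolamine mouse 4 at 12.8 CPM, and under 1 CPM elsewhere. The groups overlapped, and its edgeR log2 fold change was 0.38 (standard error 2.0, adjusted p = 0.992), or -1.59 without scopolamine mouse 2. Ghrl overlaps the annotated genes Gm26982 and Gm44033 on the opposite strand. Whether reads were assigned with regard to strand is unknown, and some could belong to those genes, neither of which has counts of its own in the table. None of the other 9 overlaps an annotated gene.

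Somatostatin, made by D cells, restrains the release of the other gut hormones. Its gene Sst (chromosome 16 from 23889573 to 23890958) had 12, 1081, 1 and 2 counts in scopolamine mice 1 to 4 and 62, 5, 2 and 292 in sham mice 1 to 4. Scopolamine mouse 2 was high at 50.6 CPM, sham mouse 4 followed at 8.71 CPM and sham mouse 1 at 2.35 CPM, and sham mouse 3, which was high for most hormones, had 2 counts. The edgeR log2 fold change was 2.2 (standard error 1.94, adjusted p = 0.884) and became -3.46 without scopolamine mouse 2, which held 74.2% of its counts.

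Tac1 and Tph1 are features of enterochromaffin cells, the serotonin cells of the gut, which also make substance P from the Tac1 precursor. Tac1 (chromosome 6 from 7554879 to 7565834) was measured at 36.3, 20.4, 0 and 40.3 CPM in scopolamine mice 1 to 4 and at 0.757, 0.0243, 12.2 and 0 CPM in sham mice 1 to 4. Scopolamine mice 1, 2 and 4 lay above all sham mice, while scopolamine mouse 3 had 0 counts and lay with sham mouse 4. Means were 24.3 ± 18.3 CPM (SD, n = 4) and 3.24 ± 5.97 CPM, and the edgeR log2 fold change was 2.90 (standard error 1.81, adjusted p = 0.833). Tph1 (chromosome 7 from 46644641 to 46672537) was measured at 14.9, 50.6, 0.564 and 22.7 CPM in scopolamine mice 1 to 4 and at 0, 0.0973, 18.1 and 0.358 CPM in sham mice 1 to 4. Scopolamine mice 2 and 4 exceeded every sham mouse, sham mouse 3 lay above scopolamine mouse 1, and scopolamine mouse 3, the lowest of its group, still lay above sham mice 1, 2 and 4. Its means were 22.2 ± 21 CPM (SD, n = 4) and 4.65 ± 8.99 CPM, and its edgeR log2 fold change was 2.25 (standard error 1.68, adjusted p = 0.869). Both genes were low in scopolamine mouse 3, the library in which Gip and Pyy were highest among the scopolamine mice.

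With all 8 libraries none of the 10 genes differed between scopolamine and sham beyond the spread between mice. With edgeR's quasi-likelihood test, 0 of the 9 past the filter had a Benjamini-Hochberg adjusted p under 0.1, and 0 of all 12849 genes tested did (0%). At an unadjusted p under 0.05 there were 0 of the 9, against 770 of all genes tested (5.99%), and Nts was not among the 1831 of 21805 genes (8.4%) in the fit without a filter. These counts depended on 1 library. Without sham mouse 3, 6 of the 9 (Pyy, Gcg, Cck, Ghrl, Tac1 and Tph1, all higher with scopolamine) had an unadjusted p under 0.05, against 714 of 13270 genes (5.38%), and none had an adjusted p under 0.1. Nts, also higher, did so in the corresponding fit without a filter, against 1519 of 21512 genes (7.06%). Without both 200 pg libraries it was 5 of the 9 against 1197 of 13869 genes (8.63%), with Nts among 1752 of 21174 (8.27%) unfiltered. With amplification cycles as a covariate it was 4 of the 9 against 793 of 12849 (6.17%), with Nts among 1419 of 21805 (6.51%) unfiltered. In these fits the sham side rests on libraries where most of these genes lie near the floor, Cck in sham mouse 2 excepted. Such genes pass the filter only with the help of the scopolamine group, which fixes their direction. Their number is therefore not comparable with the share over all genes. Nts then rests on the counts of scopolamine mouse 2. Leaving out any other mouse gave 0 or 1 of the 10. It was Nts (lower) without scopolamine mouse 2, which left at most 1 count of it in any scopolamine library. It was Gip (higher) without sham mouse 4, which left 0 counts of it in sham. Over all genes the number was 1200 of 21363 unfiltered without scopolamine mouse 2 and 612 of 13207 filtered without sham mouse 4. The filtered fits without any of these mice ran from 442 of 13270 (scopolamine mouse 2) to 1196 of 13140 genes (sham mouse 1). In the fit without a filter, used for Nts, the adjusted calls with all 8 libraries were 0 of 21805 (0%), and Nts was in none of the calls when libraries were left out. DESeq2 called 190 of 14462 genes (1.31%) and none of the 6 hormone genes for which it gave an adjusted p, leaving Pyy, Cck, Sst and Nts without one, and limma-voom called 0 genes. The CPM of the 2 groups overlapped for all 10 genes, whereas 499 of 12849 genes tested (3.88%) had groups that did not. By edgeR's fold change 7 of the 10 were higher and 3 (Sct, Pyy and Nts) lower with scopolamine, while 49.1% of all genes tested were higher. For the 9 past the filter the median log2 fold change was 0.58, against -0.01 over all genes tested. That median was 6.36 without sham mouse 3 and 6.57 without the 200 pg libraries, against -0.002 and 0.0007 over all genes in those fits. Most sham counts left for the 9 were near the floor, so these 2 values depend on the prior count and do not measure the size of a change. For single genes, an exact permutation test over the 70 assignments of mice (log2 CPM, 2-sided, unadjusted p) gave values from 0.0857 for Tph1 to 0.914 for Sst.

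Sham mouse 3 had the most hormone RNA of any library, and it was 1 of the 2 made from 200 pg. The other, sham mouse 1, had 4.05 CPM of the 9 genes other than Sct, the least of any library, so the libraries from 200 pg stood at both ends. Without sham mouse 3 the sham means were 4.01 CPM for Cck, 0.276 for Gcg, 0.126 for Ghrl, 0.0821 for Pyy, 0.0288 for Nts, 0.261 for Tac1 and 0.152 CPM for Tph1. The edgeR log2 fold changes were then 4.64 for Cck, 7.47 for Gcg, 7.01 for Ghrl, 6.62 for Tac1 and 7.11 for Tph1, and those of Pyy (6.36) and Nts (7.70) changed sign. Against sham libraries with so few counts such fitted values depend on the prior count and are not bounds. For Gip (1.54), Sst (1.78) and Sct (-0.01) leaving out this library kept the direction. In this fit of 4 against 3 libraries the lowest adjusted p of the 9 past the filter was 0.871, and in the one without a filter Nts had 0.679. Over every alternative run the range was 0.274 to 1.0, so none of the 10 passed 0.1 in any of them. The part of RNA input, depth or amplification in these differences was not tested.

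**Figure D3:**
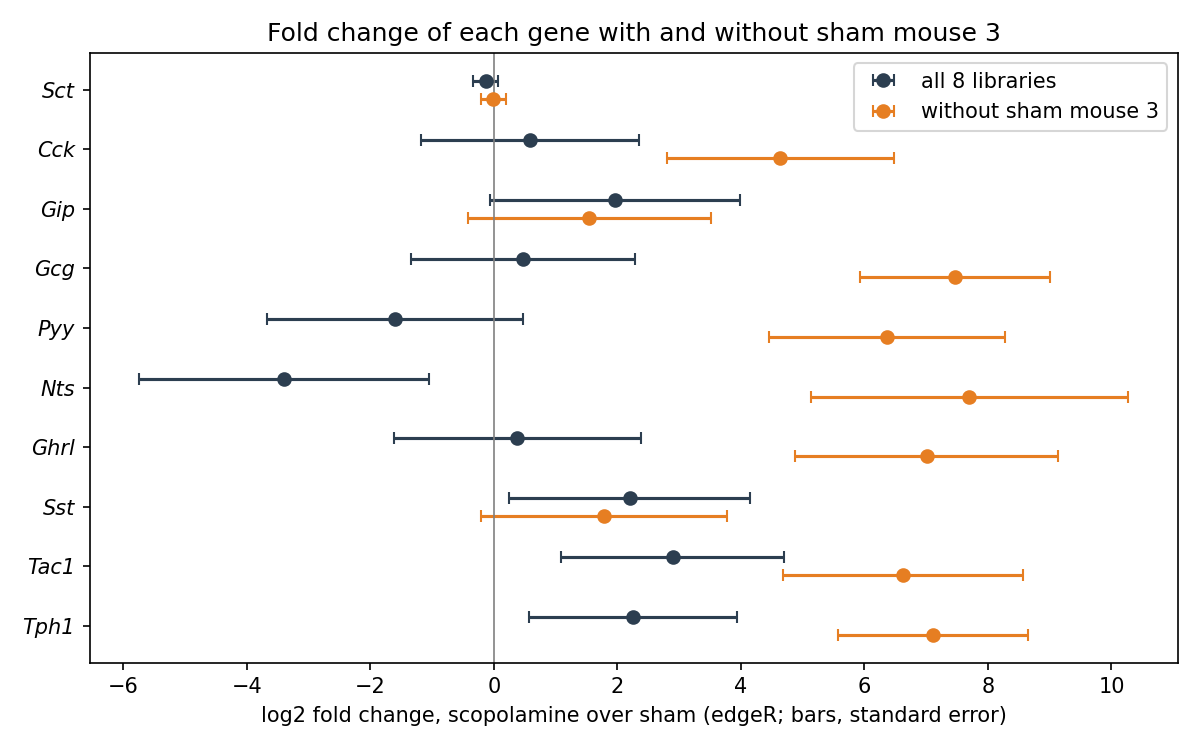
The log2 fold change of each gene, scopolamine over sham, from edgeR with all 8 libraries and without sham mouse 3, with bars of 1 standard error. The Sct values of -0.13 and -0.01 stay next to 0, whereas Pyy goes from -1.60 to 6.36 and Nts from -3.40 to 7.70 when that single library is left out.

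The 10 genes were compared in pairs over the 8 libraries. Of 45 pairs, 1 had a Pearson r of log2 CPM of at least 0.9, 9 had at least 0.7 and 7 were below 0, as a description of 8 libraries that differ in depth and composition. Over all 82541976 pairs of the genes tested the shares were 0.268%, 3.97% and 50.3%. The pairs share genes, their difference from all pairs was not tested, and many values lie at the floor, as the number of libraries with both genes above 3 counts shows. Gcg and Ghrl had r = 0.91 (Spearman rho = 0.83), with 4 libraries above the floor for both, and r = 0.88 over the 7 libraries without sham mouse 3. Cck and Ghrl followed with r = 0.88 (rho = 0.98, both above the floor in 5), or 0.86 over 7, and Gcg and Tph1 with r = 0.87 (rho = 0.83, in 6), or 0.87 over 7. The enterochromaffin pair Tac1 and Tph1 had r = 0.85 (rho = 0.66, in 4), or 0.84 over 7. Gcg with Pyy, both from L cells, had r = 0.54 (rho = 0.57, in 4), but 0.33 over the 7 without sham mouse 3. Lowest was Cck with Sst at r = -0.37 (rho = -0.48, in 4), or -0.27 over 7. Sct and the sum of the other 9 genes had r = 0.33 (rho = 0.29) over 8 libraries and r = 0.06 over 7 without sham mouse 3.

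Among all other genes tested, those whose log2 CPM followed a hormone gene most closely over the 8 libraries are named next, and the likeness is a description of 8 points. Tph1 was followed by Slc26a10 (r = 0.97, rho = 0.93), Chga (r = 0.95, rho = 0.90) and Gtf2h2 (r = 0.95, rho = 0.86), of which Chga encodes chromogranin A, a core protein of endocrine secretory granules. Ghrl was followed by Aldh16a1 (r = 0.97, rho = 0.88), Gfra3 (r = 0.97, rho = 0.90) and Zfp54 (r = 0.96, rho = 0.90). Gfra3, a receptor subunit for the neurotrophic factor artemin, had 807 counts in sham mouse 3 and 254 in scopolamine mouse 2, the same libraries that led for Ghrl. For Gcg the closest were Kat2a (r = 0.98, rho = 0.98), Mrps2 (r = 0.97, rho = 0.95) and Mertk (r = 0.97, rho = 0.90). Those for Cck were Ggct (r = 0.98, rho = 0.88), Grwd1 (r = 0.97, rho = 0.90) and Stam2 (r = 0.97, rho = 0.90). Nearest to Pyy lay Epb41 (r = 0.96, rho = 0.95), Pkib (r = 0.95, rho = 0.83) and Clstn1 (r = 0.94, rho = 0.79). Kat2a encodes an acetyltransferase and Mrps2 a mitochondrial ribosomal protein. Sst went with Ccdc7a (r = 0.94, rho = 0.98), Gm10557 (r = 0.91, rho = 0.90) and Rd3 (r = 0.89, rho = 0.95). Tac1 went with Stt3a (r = 0.96, rho = 0.97), Tm9sf2 (r = 0.95, rho = 0.99) and Rpl3 (r = 0.94, rho = 0.83). Rpl3, at far higher counts than Tac1, is a ribosomal protein gene. Closest to Sct were Ap3s1 (r = 0.96, rho = 0.90), Trem2 (r = 0.93, rho = 0.90) and Zfp943 (r = 0.93, rho = 0.90). Trem2, a receptor best known from myeloid cells, was itself near the floor, with 6 to 49 counts. The number of genes with r of at least 0.9 ran from 2 for Sst to 30 for Gcg among the 12849 genes tested, of whose pairs 0.268% reached that value.

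Related genes are given as counts per list, to be read beside all 12849 genes tested, of which 6305 (49.1%) were higher with scopolamine, 428 (3.33%) higher and 342 (2.66%) lower at an unadjusted p under 0.05. For genes with counts that failed the filter, the fit without a filter had 1208 of 21805 genes (5.54%) higher at that level and none with an adjusted p under 0.1. Of 18 further gut peptide genes 3 passed the filter, 5 (Insl5, Gal, Nmu, Calca and Calcb) were at 0 in all libraries, 0 had an adjusted p under 0.1 in edgeR and 1 was higher at an unadjusted p under 0.05, and the median log2 fold change was 1.5 over the 3 tested, 2 of them higher. Outside the filter 4 of 10 with counts were higher at an unadjusted p under 0.05 in the fit without a filter. Leaving out sham mouse 3 this was 2 of 3 higher with a median of 1.12, and leaving out both 200 pg libraries 4 of 6 with 1.30. In this and the following lists the genes past the filter could differ between such fits. A gene near 0 in sham can pass only through the scopolamine group, which fixes its direction. Their summed level was 9.37, 12.9, 17.1 and 14.9 CPM in scopolamine mice 1 to 4 and 7.87, 3.82, 22.1 and 5.28 CPM in sham mice 1 to 4. Iapp, which encodes amylin, had 111, 136, 157 and 154 counts with scopolamine and 27, 39, 100 and 87 in sham. In CPM its groups did not overlap, at 7.57 ± 2.44 (SD, n = 4) and 1.76 ± 0.898, with an edgeR log2 fold change of 2.10 (standard error 0.651, adjusted p = 0.812). Apln, encoding the vascular peptide apelin, was at 1.17 ± 1.66 and 6.17 ± 6.93 CPM, and Cartpt, encoding a neuropeptide precursor, at 0.837 ± 1.2 and 0.885 ± 1.77 CPM. Both had their highest counts in sham mouse 3, at 647 and 143, the library that led for 5 of the 10 hormones.

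The receptors for these hormones were scarce in the sorted cells. Of 32 receptor genes, 4 passed the filter (2 higher and 2 lower, none with an adjusted p under 0.1 or an unadjusted p under 0.05, median log2 fold change 0.23) and 15 were at 0 in all libraries, Sctr, Gcgr, Cckbr, Ghsr, Ntsr1 and Ntsr2 among them. Without a filter 1 of 13 further ones with counts was higher at an unadjusted p under 0.05. With libraries left out the genes past the filter changed, and there were 4 of 5 higher (median 1.22) without sham mouse 3 and 5 of 5 (1.67) without the 200 pg libraries. Summed, they stood at 168, 162, 181 and 109 CPM in scopolamine mice 1 to 4 and 182, 147, 255 and 114 CPM in sham mice 1 to 4. Nearly all of this was Sort1, a sorting receptor that also binds neurotensin, at 143 ± 30.1 CPM (mean ± SD, n = 4) in scopolamine mice and 168 ± 54.0 CPM in sham. The somatostatin receptor genes Sstr4 (3.30 ± 3.35 and 1.06 ± 1.90 CPM) and Sstr5 (2.68 ± 2.96 and 2.88 ± 4.70 CPM) were patchy, with 0 counts of Sstr4 in scopolamine mouse 2 and sham mice 3 and 4 and of Sstr5 in sham mice 1 and 4.

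Genes that act with Tph1 in serotonin and amine handling mostly passed the filter. Of 11, 10 passed the filter, Tph2, the neuronal counterpart of Tph1, was at 0 in all libraries, and 8 of the 10 were higher and 2 lower by fold change with a median of 0.83. None had an adjusted p under 0.1 in edgeR, and 1 was higher at an unadjusted p under 0.05. Leaving out libraries gave 8 of 10 higher (median 0.72) without sham mouse 3 and 8 of 10 (1.08) without the 200 pg libraries. The summed level was 398, 632, 429.7 and 528 CPM in scopolamine mice 1 to 4 and 467, 367, 410.4 and 326 CPM in sham mice 1 to 4. Ddc, which converts the Tph1 product to serotonin, was at 90.2 ± 19.7 CPM (mean ± SD, n = 4) in scopolamine mice and 57.8 ± 25.4 CPM in sham, for an edgeR log2 fold change of 0.64 (standard error 0.302, adjusted p = 0.812). Qdpr and Spr, which make and recycle the cofactor of tryptophan hydroxylase, were at 102 ± 16.5 and 75.1 ± 8.03 CPM with scopolamine and at 93.9 ± 16.0 and 92.0 ± 3.51 CPM in sham. Maoa, which breaks serotonin down, was at 76.0 ± 47.5 and 24.4 ± 20.2 CPM, with an edgeR log2 fold change of 1.64 (standard error 0.627, adjusted p = 0.812). Sham mouse 1, in which Tph1 was at 0 counts, had 2366 counts of Ddc.

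Granins, the packing proteins of hormone granules, and the enzymes that cut prohormones were also uneven between mice. Of 16 genes 13 passed the filter, 9 higher and 4 lower and the median log2 fold change was 0.86, and none had an adjusted p under 0.1 while 1 was higher at an unadjusted p under 0.05. Those outside the filter, 3 of 3 (Qpct, Resp18 and Scg3), were also higher at an unadjusted p under 0.05 in the fit without it. Qpct, named here with its values known, had 1, 64, 27 and 46 counts in scopolamine mice 1 to 4 and 0 in every sham mouse, sham mouse 3 included. Its edgeR p without a filter was 0.00112 unadjusted and 0.587 adjusted. The tally of the filtered fit depended on the libraries used, with 15 of 15 higher (median 2.37) without sham mouse 3 and 16 of 16 (3.01) without the 200 pg libraries. These are not the same gene sets, because genes that failed the filter with all 8 libraries passed it here. Qpct, Resp18 and Scg3 had 0 to 3 counts in every sham library. Without the 200 pg libraries they passed through the scopolamine group, which fixed their direction. Summed CPM was 261, 426, 131 and 613 in scopolamine mice 1 to 4 and 98.5, 24, 435 and 16.7 in sham mice 1 to 4. Over the 8 libraries this sum and that of the 9 hormone genes other than Sct had r = 0.72 on the log2 scale (rho = 0.81), and r = 0.68 over 7 without sham mouse 3. For Sct alone the values were r = 0.29 and rho = 0.21 over 8, and r = 0.13 over 7. Chga had 1238, 1589, 141 and 3836 counts in scopolamine mice 1 to 4 and 9, 79, 7157 and 32 in sham mice 1 to 4. Sham mice 1, 2 and 4, with Sct at 244, 162 and 264 CPM, thus had 9 to 79 counts of Chga. Chgb, encoding secretogranin I, was at 189 ± 136 CPM (mean ± SD, n = 4) in scopolamine mice and 44.4 ± 71.3 CPM in sham, for an edgeR log2 fold change of 2.09 (standard error 1.25, adjusted p = 0.828). Cpe, which trims prohormone ends, was at 22.6 ± 16.0 and 21.3 ± 24.7 CPM, and Pcsk2, a prohormone convertase, at 0.886 ± 0.246 and 0.139 ± 0.109 CPM with an edgeR log2 fold change of 2.65 (standard error 0.814, adjusted p = 0.812). Mboat4, the enzyme that acylates ghrelin, chosen after its values were seen, had 581 counts in sham mouse 3 and 47 in scopolamine mouse 2, both high for Ghrl, and 60 in scopolamine mouse 1, where Ghrl had 2, and it was at 0 in scopolamine mouse 4, where Ghrl had 270.

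Of 21 transcription factors of the enteroendocrine lineage 11 passed the filter, 8 higher and 3 lower and the median log2 fold change was 0.49. None had an adjusted p under 0.1 in edgeR, and 2 were higher at an unadjusted p under 0.05. Outside the filter it was 4 of 10 with counts, all higher, in the fit without a filter. The filtered fit counted 10 of 14 higher (median 0.80) without sham mouse 3 and 13 of 16 (1.0) without the 200 pg libraries. These are not the same gene sets, because genes that failed the filter with all 8 libraries passed it here. A factor near 0 in sham, such as Lmx1a, can pass only through the scopolamine group, which fixes its direction. Their summed CPM was 177, 137, 95.4 and 139 in scopolamine mice 1 to 4 and 88.8, 123, 143 and 126 in sham mice 1 to 4, most of it from St18, Prox1 and Foxa1, which were at 30.8 ± 12.7, 35.6 ± 16.4 and 25.9 ± 2.66 CPM with scopolamine and 39.0 ± 13.5, 29.3 ± 13.0 and 19.6 ± 2.63 CPM in sham. Insm1, an early endocrine factor, had 12, 154, 9 and 33 counts in scopolamine mice 1 to 4 and 15, 14, 9 and 20 in sham mice 1 to 4, with an edgeR log2 fold change of 2.53 (standard error 1.0, adjusted p = 0.812). Fev, a factor of serotonin cells, had 9, 206, 13 and 64 and 0, 36, 1 and 0 counts, with an edgeR log2 fold change of 3.92 (standard error 1.70, adjusted p = 0.812). Both were highest in scopolamine mouse 2, the library with all 10 hormone genes, and Fev had 1 count in sham mouse 3, where Tph1 was at 18.1 CPM.

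Markers of other cells were present beside the hormones. Of 14 enterocyte markers all passed the filter and 14 were higher by fold change (median 1.40), 5 at an unadjusted p under 0.05 and 0 at an adjusted p under 0.1 in edgeR. The median was 1.18 without sham mouse 3 and 2.59 without the 200 pg libraries, where Slc5a1, the glucose transporter gene, was 1 of 9 genes of 13869 (0.0649%) with an adjusted p under 0.1. Their summed CPM was 3327, 6767, 6251 and 3448 in scopolamine mice 1 to 4 and 6556, 2622, 2657 and 2626 in sham mice 1 to 4, led by Fabp1 at 3409 ± 1216 and 3073 ± 1467. All 13 goblet and Paneth cell markers also passed and were higher (median 1.53), 3 at an unadjusted p under 0.05 and 0 after adjustment, with summed CPM of 3600.5, 2285, 731 and 2455 and 1446, 372, 1269 and 414 and Tff3 most abundant. Their median was 1.53 without sham mouse 3 and 3.86 without the 200 pg libraries, with all 13 higher in both. The goblet and Paneth sum was lowest in sham mice 2 and 4, whose hormones other than Sct were also low, but sham mouse 1, lowest for those hormones, had 1446 CPM of it and the second highest enterocyte sum. Of the enterocyte, goblet and Paneth markers none was at 0 in all libraries. Immune markers (11, of which 10 passed, 8 higher and 2 lower, median 0.25, Ptprc most abundant) summed to 123, 194, 170.4 and 59.5 CPM with scopolamine and 248, 63.4, 93.8 and 70.8 CPM in sham. Stem and transit markers (8 of 8 passed, 2 higher and 6 lower, median -0.13, 1 higher at an unadjusted p under 0.05, Slc12a2 most abundant) summed to between 187 and 334 CPM. Neuron and glia markers (11, 1 passed, S100b most abundant) summed to at most 8.37 CPM, and stromal markers (8, 2 passed, both lower, Pecam1 most abundant, and 1 of 6 outside the filter higher at an unadjusted p under 0.05 without a filter) to at most 14.5 CPM. No gene of the immune, stem, neuron or stromal lists had an adjusted p under 0.1, and of the 22 tuft cell markers 4 were higher and 18 lower (median -0.12), 1 of them, Hpgds, at an unadjusted p under 0.05. Without sham mouse 3 and without the 200 pg libraries the medians were 0.13 and 2.46 for immune, -0.12 and -0.004 for stem and transit, -1.24 and 0.23 for neuron and glia, -0.40 and -0.65 for stromal and -0.11 and -0.09 for tuft cell markers. The part of these other cells in the hormone values was not tested.

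The promoters of Sct, carried by all 8 libraries, and of Cck and Gcg, the next in level per kb and patchy, are shown so that the sequences next to an even and an uneven transcript can be compared. They are the 250 bases before the RefSeq start on GRCm38.p6, all on the minus strand and printed 5′ to 3′, from chr7:141279134-141279383 for Sct, chr9:121495695-121495944 for Cck and chr2:62483654-62483903 for Gcg, upstream of the annotated first exons. Capitals mark matches to CANNTG, the E-box bound by basic helix-loop-helix factors, and to TATAAA, each searched on both strands.
Sct: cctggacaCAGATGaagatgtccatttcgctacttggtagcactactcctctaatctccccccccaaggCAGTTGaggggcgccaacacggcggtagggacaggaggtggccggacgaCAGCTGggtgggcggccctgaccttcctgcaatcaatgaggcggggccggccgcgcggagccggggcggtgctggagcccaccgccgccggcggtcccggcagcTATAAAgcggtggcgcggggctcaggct
Cck: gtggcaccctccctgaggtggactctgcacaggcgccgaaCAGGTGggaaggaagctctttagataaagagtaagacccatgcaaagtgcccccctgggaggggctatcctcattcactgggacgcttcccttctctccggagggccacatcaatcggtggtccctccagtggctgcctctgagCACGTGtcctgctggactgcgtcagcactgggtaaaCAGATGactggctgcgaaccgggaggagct
Gcg: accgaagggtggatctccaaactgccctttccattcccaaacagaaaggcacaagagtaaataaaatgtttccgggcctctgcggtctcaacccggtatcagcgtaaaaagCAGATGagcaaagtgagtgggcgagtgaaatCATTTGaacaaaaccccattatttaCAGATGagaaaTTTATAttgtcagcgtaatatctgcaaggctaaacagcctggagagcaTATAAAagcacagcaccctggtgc
Each of the 3 windows has 3 matches to CANNTG, Sct has 1 to TATAAA, Gcg has 2 and Cck has 0. GC content was 68.0% for Sct, 60.0% for Cck and 44.8% for Gcg, against a median of 52.4% over 32851 promoters of the same length. Of these, 66.2% held CANNTG and 12.4% held TATAAA. All 10 genes matched a RefSeq promoter, with 15 starts in all, of which 11 held CANNTG and 2 held TATAAA. A match describes the letters in the window and is not evidence of binding.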

How the data were processed

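Libraries were sequenced from sorted cells of 8 mice. The authors removed adaptors while making read files (bcl2fastq 2.20 in the submitters' processing notes), ran kallisto 0.44.0 on a GRCm38 transcript index, and used tximport to obtain the estimated counts per gene that were deposited, not normalized. The annotation release and use of strand are not given in the sources used here. Estimated counts were rounded to whole numbers, which they already were. RNA input and cycles come from the study's library records. edgeR 4.0.16 in R 4.3.3 gave the tests, by quasi-likelihood with TMM sizes and filterByExpr, and a call needed a Benjamini-Hochberg p below 0.1. The step was tested on simulated data, whose outcome is not reported here. Also run were DESeq2 1.42.0, voom in limma 3.58.1, other size factors and filters, an adjusted p under 0.05, cycles or mouse ID letter as covariates, omission of the 2 libraries from 200 pg and of each mouse, other detection floors, the sum without its most abundant gene, and the longest transcript. CPM used TMM library sizes, log2 CPM a prior count of 2, and lengths the mean coding transcript in GENCODE M21 (34887 of 35199 symbols found). Libraries of a group all differed by more than sampling noise (smallest chi-square per degree of freedom 67.5).

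The 10 genes and all gene lists were chosen with earlier results of these data known. Besides the 10, named genes were the 3 with highest mean CPM and up to 3 with smallest unadjusted p under 0.05 in each list (other gut peptide hormones, hormone and serotonin receptors, serotonin and biogenic amine handling, granins and prohormone processing, enteroendocrine transcription factors, and markers of tuft, enterocyte, goblet and Paneth, stem and transit, immune, neuron and glia, and stromal cells), and for each of the 10 above 3 counts in at least 4 libraries the 3 genes tested with the highest Pearson r (not printed for Gip). Qpct, Resp18, Scg3, Lmx1a and Mboat4 were named outside this rule, with their values known, as were genes at 0 in all libraries. Mouse ID letter (M for scopolamine mice 1 to 3 and sham mouse 1, N for the others) leaves 1 mouse of a group in each set and was used only as a covariate.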

Additional observations from a re-analysis of the deposited data

Results flagged for a closer look

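In 16 of 48 groups of 4 libraries tested, the highest or lowest library passed Dixon's 95% limit for its distance from the next, relative to the whole range. For normally distributed values chance does this in about 1 in 20 groups. The values here were CPM on a linear scale, with several genes near the floor in most libraries of a group. That rate therefore need not apply. How often other genes pass the limit was not tested, so 16 of 48 cannot be read as an excess over chance. Many of the 16 come from the same library and are not independent. Sham mouse 3 was the high one in sham for Pyy (85.5 CPM), Gcg (134), Cck (259.9), Nts (300.2), Ghrl (54.6), Tac1 (12.2) and Tph1 (18.1 CPM). It was also high for the sum of the 10 genes (1169 CPM) and for that without Sct (865 CPM). Gip was set apart in sham by sham mouse 4 at 18.2 CPM. Among scopolamine mice, mouse 2 stood apart for Sst at 50.6 CPM and for Nts at 28.6 CPM, and mouse 3 for Pyy at 25.3 CPM. Of the marker sums, sham mouse 4 was low for tuft cell markers (22736 CPM), and sham mouse 1 was high for enterocyte markers (6556 CPM) and immune cell markers (248 CPM).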

How the results depend on the processing

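The number of genes with an adjusted p under 0.1, 0 in edgeR, was 190 with DESeq2 (142 higher, 48 lower), 9 without the 2 libraries from 200 pg, 5 with amplification cycles as a covariate and 0 to 2 with each mouse left out. In the fit without a filter, used for Nts and other genes outside it, the calls were 117 without the 200 pg libraries, 29 with cycles as a covariate and 0 to 12 with each mouse left out. With all 8 libraries the number was 0 in limma-voom, without a filter, with a filter of 10 counts in every library, with the size factors of DESeq2, with library size alone, with mouse ID letter as a covariate and, in edgeR, at an adjusted p under 0.05. None of the 10 genes was called in the fits used for it, which are those past the filter for 9 and without a filter for Nts. At an unadjusted p under 0.05 (Nts from the fit without a filter), 0 of the 10 became 7 without sham mouse 3, 6 without the 200 pg libraries, 5 with cycles as a covariate, 1 without scopolamine mouse 2 or sham mouse 4, and 0 in the others, of the 6 with a p in DESeq2, 9 in limma-voom, 1 with the filter of 10 counts and 10 elsewhere. Of 159 fold changes of single genes under alternatives, 143 kept their direction and 16 reversed. Those outside the fits that leave out 1 mouse were Pyy with limma-voom (1.0), Pyy, Sct and Nts without the 200 pg libraries (6.62, 0.028 and 7.84) and with cycles as a covariate (6.63, 0.061 and 7.83), and Sst with mouse ID letter (-0.62). With each mouse left out the log2 fold change ran from -4.37 to 6.36 for Pyy, -0.15 to 7.47 for Gcg, -3.46 to 3.95 for Sst, -10.87 to 7.70 for Nts, -1.59 to 7.01 for Ghrl, 0.04 to 11.87 for Gip, 0.16 to 4.64 for Cck, 2.48 to 6.62 for Tac1, 1.45 to 7.11 for Tph1 and -0.29 to -0.01 for Sct. Ghrl was just below 0 without sham mouse 1, 2 or 4. Values against sham libraries near 0 counts depend on the prior count. Genes near the floor in those libraries pass the filter only with the help of the scopolamine group, which fixes their direction. The summed level, log2 ratio of the group means 0.03, was 1.04 without the 200 pg libraries and -0.25 to 1.01 with each mouse left out, and the difference in genes carried, 2.25, ran from 1.5 to 3.25. With the longest coding transcript the level per kb went from 33.6 to 17.8 for Ghrl, which then lay below Nts and Pyy, from 5.83 to 2.94 for Tph1, from 16.5 to 11.2 for Tac1, from 135 to 106 for Cck and from 46.1 to 36.9 for Gcg. A filter of 10 counts in every library left Sct as the only one of the 10 tested. The causes were not tested. Counts of 0 to 3, common in sham mice 1, 2 and 4, limit the precision of fold changes for all genes but Sct.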
